A study of Mus musculus with 8 samples.

Results

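Semaphorins and their receptors, the plexins and neuropilins, were compared between the olfactory mucosa of mice with a conditional deletion of Emx2 and that of control littermates. The family was taken by gene symbol and counts 31 genes, of which 20 are semaphorins (the ligands) and 11 are plexins or neuropilins (the receptors). All 31 had a transcript cluster (the probes of a gene's exons, summarised to 1 signal) whose annotation named that gene alone. There were 21789 such clusters in all, carrying 19938 gene symbols. Sema4d and Sema6b had 2 such clusters each. Sema4d was represented by the one with the higher mean over the 8 arrays, and those of Sema6b held the same values.

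The 8 mice were on a mixed 129 x C57BL/6J background and were taken at postnatal day 1 (P1), with 1 array of total RNA per mouse. The deleted gene, Emx2, codes for a transcription factor of the homeodomain type in olfactory sensory neurons (OSNs). The 4 knockouts were OmpCre:Emx2(fl/fl), in which both floxed copies of Emx2 can be removed by Cre recombinase. The 4 control littermates were of 2 genotypes. OmpCre:Emx2(fl/+) was the genotype of controls 1 to 3, whereas control 4 had no Cre and was Emx2(fl/fl). Cre was inserted into the Omp locus and is therefore made in mature OSNs, so that progenitors, immature OSNs and all other cells of the mucosa keep Emx2. Controls 1 to 3 carry the same Cre insertion and can lose 1 copy of Emx2 in the same neurons. Litters and sexes are not named in the labels, and mouse numbers within a group are names only and pair no mice.

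Every value below is a log2 signal or a difference of log2 signals, knockout minus control, with ± for the standard error of the difference by limma (n = 4 mice per group) unless an SD is named. Emx2 itself measured 10.83, 10.74, 10.58 and 10.89 in controls 1 to 4 and 10.25, 10.14, 10.34 and 10.14 in knockouts 1 to 4. The groups did not overlap, and the difference was -0.55 ± 0.08, a fold of 0.684 (exact permutation p = 0.0286 over the 70 assignments of mice, the smallest this design allows; limma adjusted p = 0.201). Omp, the marker of mature OSNs, measured 13.43, 12.72, 12.56 and 13.29 in controls 1 to 4 and from 12.60 to 12.91 in knockouts. Gap43, the marker of immature OSNs, lay between 11.51 and 11.76, so both neuronal stages of the labelled tissue were measured in every mouse. Because Cre sits in the Omp locus, Omp signal can also follow the Cre insertion, which was not tested. It was highest in control 1, labelled with Cre, and in control 4, without Cre. Array medians ranged from 8.64 to 8.68. Control 2 stood apart on the first principal component (32.9, against -11.83 to 6.11 in the other arrays), and values without it are given beside the members whose differences it moved most. The tissue was analysed whole, so fewer cells of a type and less RNA per cell cannot be told apart.

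Semaphorins steer growing axons, vessels and migrating cells. Class 3 semaphorins are secreted and mostly repel axons by binding a neuropilin, which holds the ligand, and a class A plexin, which carries the signal into the cell by switching off small GTPases of the Ras family. Classes 4 to 6 span the membrane and class 7 is tied to it by a lipid anchor, and these bind plexins directly. In the olfactory system, Sema3a with its receptor Nrp1, and Sema3f with its receptor Nrp2, sort OSN axons before and at the olfactory bulb. The amounts of Nrp1 and Plxna1 in an OSN differ with the odorant receptor it expresses, through the cAMP signal of that receptor.

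Because the deleted gene encodes a homeodomain factor, the RefSeq promoters of the 5 members with the smallest p values are shown for the 4-base homeodomain core TAAT. Each is the 250 bases upstream of the annotated start (assembly GRCm38.p6), printed 5′ to 3′ in the direction of the gene, and capitals mark TAAT on either strand (ATTA where it lies on the other strand). All 5 genes are on the plus strand. The windows are chr5:12382916-12383165 (Sema3d), chr3:95160170-95160419 (Sema6c, the first of its 2 promoters), chr9:57939862-57940111 (Sema7a), chrX:74328816-74329065 (Plxna3) and chr8:128358823-128359072 (Nrp1).
Sema3d: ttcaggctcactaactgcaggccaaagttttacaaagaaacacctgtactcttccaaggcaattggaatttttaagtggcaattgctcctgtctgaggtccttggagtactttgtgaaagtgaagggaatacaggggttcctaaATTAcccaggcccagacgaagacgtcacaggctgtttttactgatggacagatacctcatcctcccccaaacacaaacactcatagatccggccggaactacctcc
Sema6c: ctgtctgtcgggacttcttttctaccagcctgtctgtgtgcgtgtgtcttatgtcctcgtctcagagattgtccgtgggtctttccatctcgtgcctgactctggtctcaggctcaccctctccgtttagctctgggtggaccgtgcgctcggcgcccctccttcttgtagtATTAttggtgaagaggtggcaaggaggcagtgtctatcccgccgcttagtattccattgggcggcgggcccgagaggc
Sema7a: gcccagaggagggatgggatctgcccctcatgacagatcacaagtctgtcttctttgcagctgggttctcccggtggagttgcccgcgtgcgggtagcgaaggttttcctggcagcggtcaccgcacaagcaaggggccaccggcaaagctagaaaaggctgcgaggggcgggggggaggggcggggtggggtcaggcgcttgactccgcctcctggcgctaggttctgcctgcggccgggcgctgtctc
Plxna3: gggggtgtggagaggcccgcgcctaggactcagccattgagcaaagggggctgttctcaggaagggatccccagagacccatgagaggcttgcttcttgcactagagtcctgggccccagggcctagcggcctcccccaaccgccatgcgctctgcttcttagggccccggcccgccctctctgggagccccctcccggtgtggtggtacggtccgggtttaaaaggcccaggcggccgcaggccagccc
Nrp1: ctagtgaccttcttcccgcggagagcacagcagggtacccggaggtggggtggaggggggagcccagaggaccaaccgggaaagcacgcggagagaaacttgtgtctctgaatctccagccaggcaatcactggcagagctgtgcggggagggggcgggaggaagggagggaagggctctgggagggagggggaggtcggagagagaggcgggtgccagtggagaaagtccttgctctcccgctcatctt

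Sema3d held 1 TAAT core, at position -106 from its start, and the first promoter of Sema6c held 1, at -78. The windows of Sema7a, Plxna3 and Nrp1 held none. Over the family, 26 of the 31 genes were in the promoter table, with 37 promoters, of which 14 held TAAT on either strand, against 54.9% of all 32851 promoters. The longer core TAATTA, which contains TAAT, was in 0 of the 37 (4.84% of all promoters). The palindromic core bound by Olf/Ebf factors was in 1, that of Plxnb1 (0.78% of all promoters). A match describes the letters of a window and shows no binding, and a window without a match says nothing about the factor.

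Neither ligands nor receptors had a member that passed the test: 0 of 31 reached an adjusted p under 0.05, and the lowest adjusted p was 0.739. Over all 21789 clusters the share at an adjusted p under 0.05 was likewise 0.00%. By the methods' t-test 6 members were at an unadjusted p under 0.05, where 4.96% of all clusters lay, and 0 after adjustment. Only the kind of test was taken from the study, and it was run here on unscaled values. The study scaled its values to mature OSN genes and used a p level of 0.01. By limma 5 members were at an unadjusted p under 0.05, 16.1% of the 31, where 5.17% of all clusters lay. These were 3 of the 20 ligands, Sema3d (higher in knockouts), Sema6c and Sema7a (both lower), and 2 of the 11 receptors, Nrp1 (higher) and Plxna3 (lower). Of all clusters, 2.62% were higher and 2.55% lower at that level. In 4 members, Sema3d, Sema6c, Plxna3 and Plxna1, the 2 groups of mice did not overlap, which is 12.9% of members against 3.10% of all clusters. Without overlap the exact permutation p is always 0.0286 in this design, so in these 4 genes that p only restates the separation. The members share arrays and were chosen as a family with earlier results of these data known, so these shares describe them and were not tested.

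**Figure D1:**
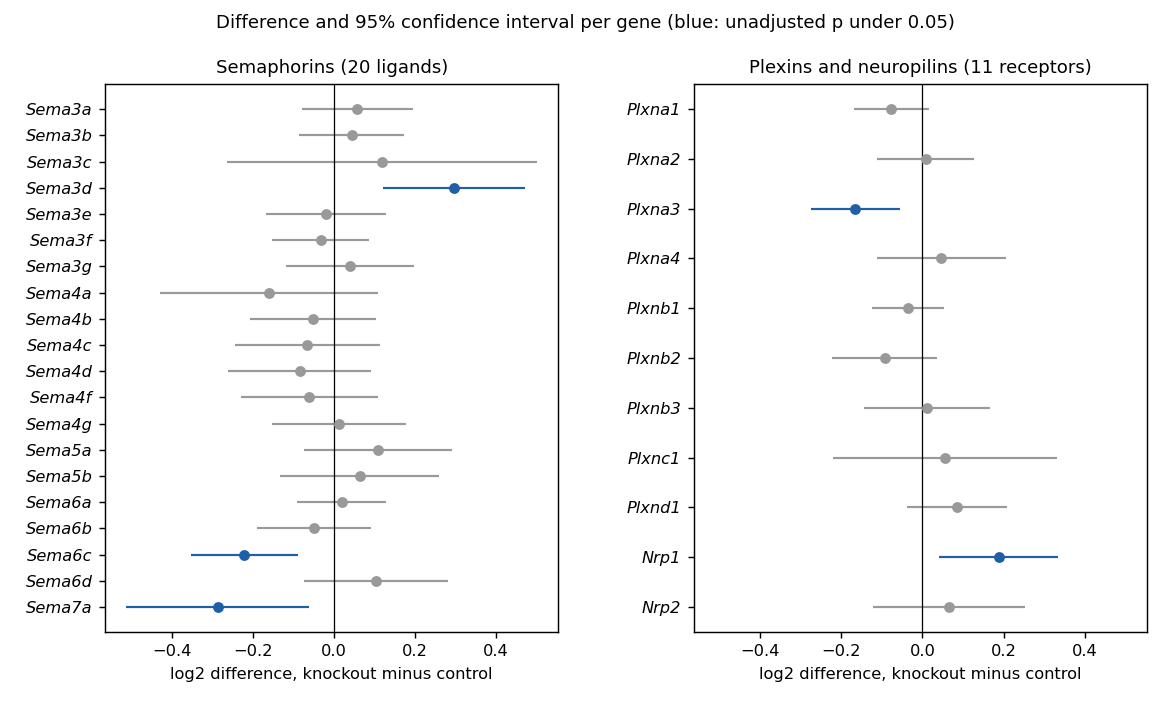
Log2 difference (knockout minus control, x axis) with its 95% confidence interval for the 20 semaphorins (left) and the 11 plexins and neuropilins (right), from 4 knockouts and 4 controls. Blue marks the 5 genes at an unadjusted p under 0.05: Sema3d and Nrp1 lie above 0 and Sema6c, Sema7a and Plxna3 below it, while the intervals of the other 26 genes include 0.

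The family as a whole did not lean one way. Among the ligands 10 were higher and 10 lower, with a median difference of -0.0035, and among the receptors 7 were higher and 4 lower, with a median of 0.0111, where the median of all clusters was 0.0024. In 22 of the 31 members the difference was under 0.1 in size. The mean signal of 23 members was above the median cluster and that of 8 was not. Standard errors of members ran from 0.0392 to 0.168, with a median of 0.0683 against 0.0666 over all clusters, so the family was measured about as tightly as other genes.

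Sema3d, a secreted class 3 ligand, was the member with the smallest p in the reported limma fit. It measured 10.06, 9.98, 10.20 and 9.92 in controls 1 to 4 and 10.45, 10.26, 10.23 and 10.41 in knockouts 1 to 4. Each knockout was above each control, although control 3 and knockout 3 were close. The difference was 0.30 ± 0.08, a fold of 1.23 (exact permutation p = 0.0286, limma adjusted p = 0.739). Its 95% interval ran from 0.12 to 0.47.

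The other class 3 ligands differed less. Sema3a, the repellent that signals through Nrp1, measured 11.04, 10.95, 11.14 and 11.03 in controls 1 to 4 and 11.19, 10.996, 11.15 and 11.06 in knockouts 1 to 4. The groups overlapped over most of their range (0.06 ± 0.06, 95% interval -0.08 to 0.19, exact permutation p = 0.343), and without control 2 the difference was 0.03. Sema3f, the repellent that signals through Nrp2, measured 10.77, 10.90, 10.95 and 10.85 in controls and 10.85, 10.88, 10.75 and 10.85 in knockouts, the knockouts lying within or just below the range of the controls (-0.03 ± 0.05, 95% interval -0.15 to 0.09, exact permutation p = 0.514). Sema3c, a ligand of both neuropilins, had the widest spread of all members. It ran from 9.20 to 9.53 in controls but from 8.98 in knockout 3 to 9.81 in knockout 1, and differed by 0.12 ± 0.17. Without knockout 3 that difference was 0.28 and at an unadjusted p under 0.05 by limma, and without control 2 it was 0.18 ± 0.18. The remaining class 3 genes were Sema3b (0.04 ± 0.06), Sema3g (0.04 ± 0.07), which acts through Nrp2, and Sema3e (-0.02 ± 0.06), the class 3 ligand that binds Plxnd1 without a neuropilin. In all, 5 of the 7 class 3 ligands were higher and 2 lower.

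Class 4 ligands span the membrane and signal mainly through class B plexins. Of the 6 measured, 5 were lower and 1 higher, and none was at an unadjusted p under 0.05. The differences were -0.16 ± 0.12 for Sema4a, -0.08 ± 0.08 for Sema4d (the ligand of Plxnb1), -0.07 ± 0.08 for Sema4c (a ligand of Plxnb2), -0.06 ± 0.07 for Sema4f, -0.05 ± 0.07 for Sema4b and 0.01 ± 0.07 for Sema4g. The value of Sema4a was raised in control 2 alone, at 9.48 where the other controls lay between 8.96 and 9.03 and the knockouts between 8.78 and 9.06. Without control 2 the differences were -0.04 for Sema4a, -0.10 for Sema4f, -0.04 for Sema4d and 0.03 for Sema4g, and those of Sema4b and Sema4c were within 0.01 of 0. Sema4f was highest in control 4, at 8.79 where the other controls lay between 8.46 and 8.58, and without control 4 it differed by 0.01 ± 0.06. A further cluster of Sema4d differed by -0.01 ± 0.06.

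Class 5 ligands, which carry thrombospondin repeats, were both higher, Sema5a by 0.11 ± 0.08 and Sema5b by 0.06 ± 0.09. In class 6, whose members are transmembrane ligands of class A plexins, Sema6c stood apart from its relatives. It measured 9.52, 9.69, 9.53 and 9.66 in controls 1 to 4 and 9.31, 9.34, 9.47 and 9.39 in knockouts 1 to 4, so that every knockout was below every control. The difference was -0.22 ± 0.06, a fold of 0.858 (exact permutation p = 0.0286, limma adjusted p = 0.739). Sema6d differed by 0.10 ± 0.08, Sema6a by 0.02 ± 0.05 and Sema6b by -0.05 ± 0.06, and the further cluster of Sema6b held the same values as the first. Without control 2 the difference of Sema6b was within 0.01 of 0. Sema5a and Sema6d, like Sema3c, were at an unadjusted p under 0.05 when knockout 3 was left out, with differences of 0.18 and 0.17.

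Sema7a, the lipid-anchored ligand that promotes axon growth through integrins and binds Plxnc1, had one of the larger differences, and it rested in part on 1 mouse. It measured 10.52 in control 1, 10.23, 10.003 and 10.21 in controls 2 to 4 and 9.89, 9.94, 10.04 and 9.95 in knockouts 1 to 4. Control 3 lay among the knockouts, so the groups overlapped. The difference was -0.29 ± 0.10, a fold of 0.820 (exact permutation p = 0.0571, limma adjusted p = 0.907). Without control 1 it was -0.19.

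**Figure D2:**
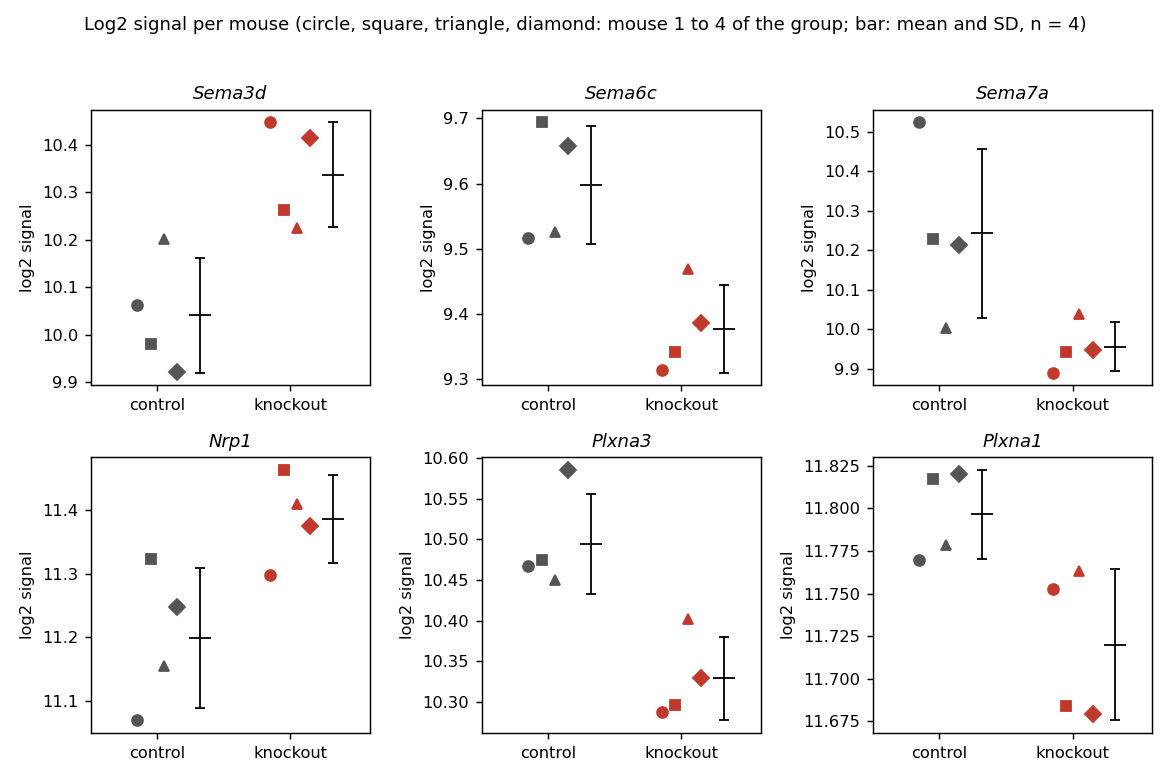
Log2 signal (y axis, scale differing by panel and not starting at 0) in each of the 4 controls (grey) and 4 knockouts (red) for Sema3d, Sema6c, Sema7a, Nrp1, Plxna3 and Plxna1. Symbols name the mouse within its group and bars give the mean and SD. The groups do not overlap in Sema3d, Sema6c, Plxna3 and Plxna1, and they overlap in Sema7a, through control 3, and in Nrp1, through control 2.

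Among the receptors, both neuropilins were higher in knockouts, Nrp1 by nearly 3 times its standard error and Nrp2 by less than its own. Nrp1, the receptor of Sema3a and a co-receptor of vascular endothelial growth factor, measured 11.07, 11.32, 11.15 and 11.25 in controls 1 to 4 and 11.30, 11.46, 11.41 and 11.38 in knockouts 1 to 4. Knockout 1 lay just under control 2, and the other 3 knockouts lay above all controls. The difference was 0.19 ± 0.06, a fold of 1.14 (exact permutation p = 0.0571, limma adjusted p = 0.891). With 1 mouse left out it ran from 0.15, without control 1, to 0.23, without control 2. Without knockout 2 it was 0.16, and only there was it just outside an unadjusted p of 0.05 by limma. Nrp2, the receptor of Sema3f, measured 11.45, 11.25, 11.51 and 11.28 in controls and 11.55, 11.28, 11.53 and 11.39 in knockouts, with the groups overlapping in part (0.07 ± 0.08, 95% interval -0.12 to 0.25, exact permutation p = 0.486). Without control 2 its difference was 0.03. The mean of both neuropilins ran from 11.26 to 11.33 in controls and from 11.37 to 11.47 in knockouts. The groups overlapped in each gene alone. Means were also taken over the semaphorin and plexin classes, and the neuropilin mean was the only one without overlap. The Sema5 pair ran from 9.56 to 9.71 in controls and from 9.53 to 9.84 in knockouts. Plxnc1 with Plxnd1 ran from 9.73 to 9.87 and from 9.79 to 10.09. The neuropilin mean was picked after the values were seen and was not tested, and no share over all pairs of genes was taken.

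The receptor and ligand of each axon-sorting pair were also set against each other within each mouse, which removes what shifts a whole array. Nrp1 minus Sema3a was higher in knockouts by 0.13 (exact permutation test over the 70 assignments of mice, two-sided p = 0.314), Nrp2 minus Sema3f by 0.10 (exact p = 0.4), and Nrp1 minus Nrp2 by 0.12 (exact p = 0.4). None of these 3 contrasts, which were picked after the values were seen, differed beyond the spread between mice (adjusted p = 0.4 each). The smallest p this design allows is 0.0286.

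**Figure D3:**
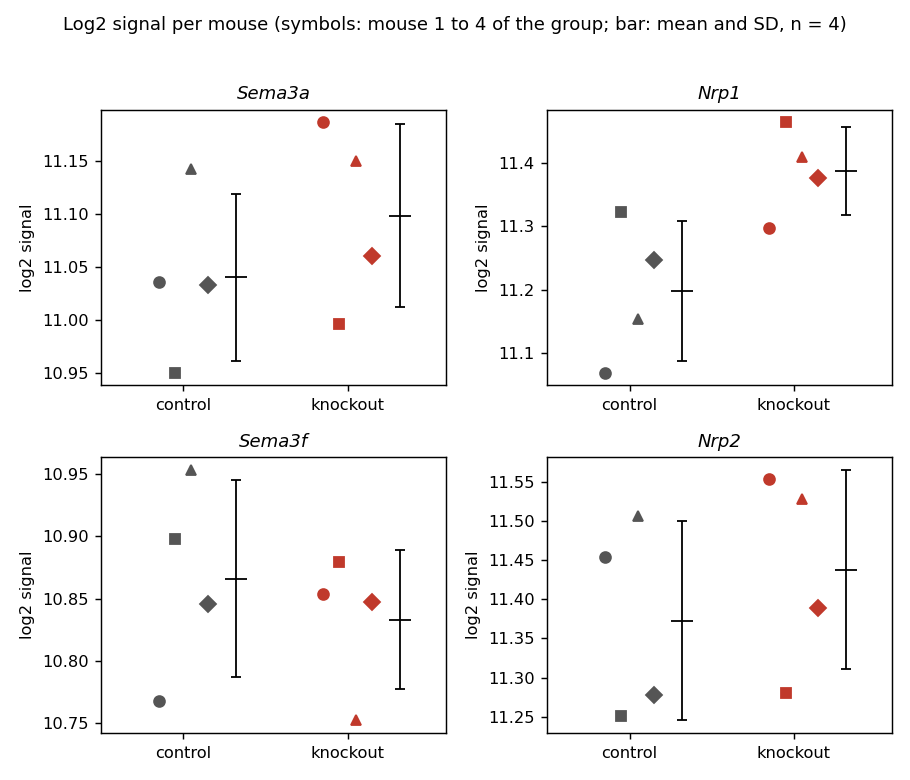
Log2 signal (y axis, scale differing by panel and not starting at 0) per mouse of the 2 axon-sorting pairs, Sema3a with Nrp1 (top) and Sema3f with Nrp2 (bottom), in 4 controls (grey) and 4 knockouts (red), with mean and SD. Nrp1 is higher in 3 of 4 knockouts than in any control, while the groups overlap in Sema3a, Sema3f and Nrp2.

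Class A plexins are the signalling partners of neuropilins and the receptors of class 6 semaphorins. The 2 best known from olfactory axons, Plxna1 and Plxna3, each had every knockout below every control. Plxna3, which pairs with Nrp2 in Sema3f signalling and is X-linked, measured 10.47, 10.47, 10.45 and 10.59 in controls 1 to 4 and 10.29, 10.30, 10.40 and 10.33 in knockouts 1 to 4. The difference was -0.17 ± 0.05, a fold of 0.892 (exact permutation p = 0.0286, limma adjusted p = 0.794).

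Plxna1 measured 11.77, 11.82, 11.78 and 11.82 in controls 1 to 4 and 11.75, 11.68, 11.76 and 11.68 in knockouts 1 to 4. The gap between the groups was narrow, with knockout 3 and control 1 almost level. The difference was -0.08 ± 0.04, a fold of 0.948 (limma adjusted p = 0.909), and its exact permutation p of 0.0286 follows from the lack of overlap alone. Plxna1 was at an unadjusted p under 0.05 by the methods' t-test, which takes each gene's spread alone, and by limma with a trend and robust prior. It was not at that level by limma as reported. Its controls had the smallest within-group SD of all members, 0.0261, and limma moves such small spreads towards those of other genes. Plxna4 (0.05 ± 0.07) and Plxna2 (0.01 ± 0.05) differed within their error.

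Class B plexins, the receptors of class 4 semaphorins, gave -0.09 ± 0.06 for Plxnb2, -0.04 ± 0.04 for Plxnb1 and 0.01 ± 0.07 for Plxnb3. Plxnb2 was highest in control 2, at 12.82 where the other controls lay between 12.59 and 12.65, and without that mouse it differed by -0.04 ± 0.04. Plxnb3 differed by 0.06 ± 0.06 without control 2. Plxnd1, the receptor of Sema3e in vessels, differed by 0.09 ± 0.05, and without control 3 by 0.12, which was at an unadjusted p under 0.05. Plxnc1, the receptor of Sema7a, differed by 0.06 ± 0.12, and it was high in knockout 1 alone, at 9.57 where the other knockouts lay between 9.03 and 9.12.

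The other genes of semaphorin signalling gave no call. Of 46 listed co-receptors and intracellular partners, 44 were measured, 24 higher and 20 lower. By limma 0 were at an unadjusted p under 0.05, where 5.17% of all clusters lay. Of the 14 at the cell surface, 9 were higher, among them the vascular endothelial growth factor receptors Flt1 (0.19 ± 0.12) and Kdr (0.15 ± 0.13), which share ligands with Nrp1. Of the 30 inside the cell, 15 were higher and 15 lower. They include Crmp1 (-0.15 ± 0.11), a mediator of Sema3a signals on microtubules, and Limk2 (-0.04 ± 0.04), a kinase that stabilises actin. Limk2 was the 1 partner of 44 at p under 0.05 by the methods' t-test, where 4.96% of all clusters lay. It was also the 1 partner whose groups did not overlap, against 3.10% of all clusters. Its unadjusted p by limma was 0.245.

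Genes of other systems that sort OSN axons were counted apart. Of 13 listed, 12 were measured, 7 higher and 5 lower, and 4 (33.3%, against 5.17% of all clusters) were at an unadjusted p under 0.05. Slit1, a secreted repellent, differed by -0.30 ± 0.07 (adjusted p = 0.593), Kirrel2, an adhesion protein that follows neuronal activity, by -0.33 ± 0.09 (adjusted p = 0.739), and B3gnt2, an enzyme that builds the sugar chains of axon adhesion, by -0.23 ± 0.07 (adjusted p = 0.861). Robo2, a Slit receptor, was higher by 0.12 ± 0.05 (adjusted p = 0.909).

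Marker lists of cell types were also compared between the groups. Of all clusters, 51.35% were higher in knockouts, and 5.17% were at an unadjusted p under 0.05 by limma. Of 24 mature OSN genes 19 were lower in knockouts, with a list mean that ran from 11.24 to 11.53 in the control mice and from 11.21 to 11.42 in the knockout mice, while immature OSN genes were split, 7 higher and 8 lower. The mature OSN genes at an unadjusted p under 0.05 were S100a5 (-0.58 ± 0.12), Cidea (-0.43 ± 0.11), Kirrel2, Rtp2 (-0.26 ± 0.09) and Pde4a (-0.16 ± 0.07), and the immature ones Gap43 (-0.11 ± 0.05) and Trib3 (-0.20 ± 0.07). All 10 genes of mesenchyme and bone were higher, the list mean running from 11.04 to 11.44 in the control mice and from 11.31 to 11.61 in the knockout mice, and Lum, a matrix proteoglycan, was the one at an unadjusted p under 0.05 (0.32 ± 0.12). All 9 endothelial genes were higher as well, from 9.28 to 9.41 in controls and from 9.10, in knockout 3, to 9.67. All 8 progenitor genes were higher, Kit (0.17 ± 0.07) at an unadjusted p under 0.05. Their list mean was 11.39, 10.96, 11.22 and 11.35 in controls 1 to 4 and ran from 11.34 to 11.53 in knockouts. It was thus lowest in control 2, the array that stood apart, and the groups overlapped. Of 8 genes of olfactory bulb neurons 5 were higher, Gad2 (0.32 ± 0.11) at an unadjusted p under 0.05. Gad2 did not follow the mean of that list, which ran from 8.09 in control 1 to 8.92 in knockout 1. It was lowest in control 2 (9.41) and highest in knockout 3 (10.13), where the list means were 8.76 and 8.27. No gene of the endothelial list or of the lists that follow was at an unadjusted p under 0.05. In these, 4 of 11 myeloid, 3 of 7 sustentacular, 4 of 7 ensheathing glia, 1 of 10 muscle and 3 of 5 red blood cell genes were higher. Semaphorins and neuropilins are also made by such cells, and the part of these lists in the values of Sema3d, Nrp1, Sema6c, Sema7a and Plxna3 was not tested.

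**Figure D4:**
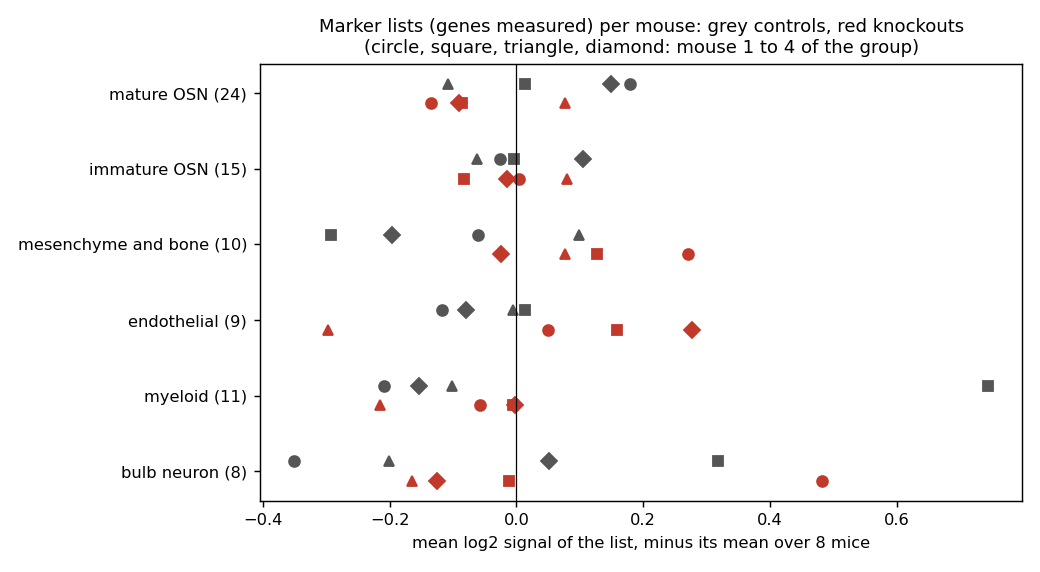
Mean log2 signal of 6 marker lists in each mouse, minus the mean over the 8 mice (x axis), for controls (grey) and knockouts (red), with the number of genes measured beside each list. Mesenchyme and bone genes are highest in knockouts 1 and 2, the myeloid list is high in control 2 alone, and the endothelial list is low in knockout 3.

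When every array was shifted to the same mean of the mature OSN genes, every difference moved up by the same amount, and the median of all clusters went from 0.0024 to 0.12. On that scale the differences were 0.41 for Sema3d, 0.31 for Nrp1, -0.10 for Sema6c, -0.17 for Sema7a, -0.05 for Plxna3 and 0.04 for Plxna1, each as far from the median of all clusters as before. Of these 6, Sema3d and Nrp1 were at an unadjusted p under 0.05 against 0, where 8.36% of all clusters lay. Signal of the Y-linked list was high (10.53 to 10.72) in controls 2 to 4 and knockout 3 and low (7.05 to 7.51) in knockouts 1, 2 and 4. Control 1, at 8.09, lay between them and nearer the low arrays, so the groups were uneven in this signal. With that signal as a covariate, Sema3d (0.24), Sema6c (-0.15), Sema7a (-0.34) and Nrp1 (0.24) were still at an unadjusted p under 0.05, and X-linked Plxna3 (-0.12) was not. In that fit 3.18% of all clusters were at that level. None of the 6 passed adjustment under these settings.

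**Figure D5:**
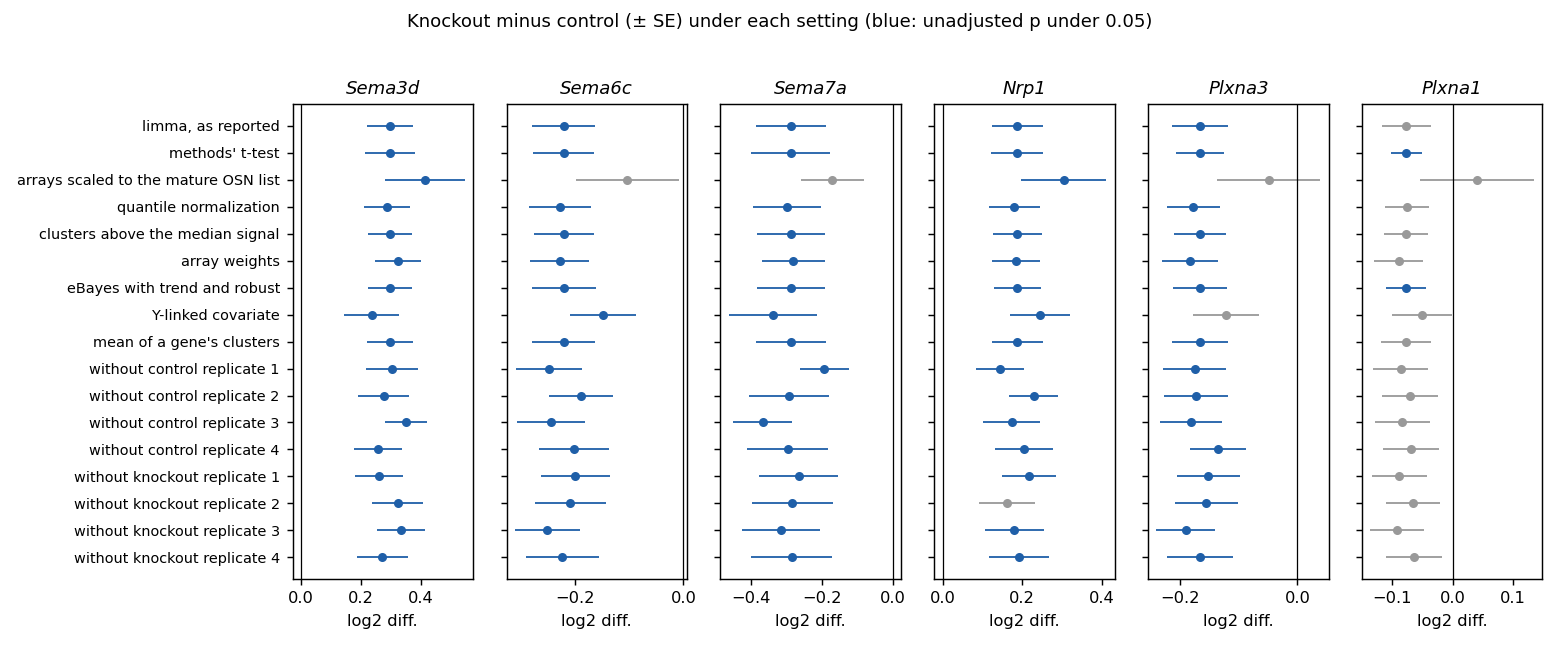
Log2 difference (knockout minus control, x axis, scale differing by panel) with its standard error for 6 members under the reported fit and 16 alternatives (y axis). Blue marks an unadjusted p under 0.05: Sema3d is blue throughout, Sema6c, Sema7a and Nrp1 in 15 of 16 alternatives, Plxna3 in 14, and Plxna1 in 2.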

How the data were processed

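Total RNA from 8 olfactory mucosae was hybridised to Mouse Gene 1.0 ST microarrays (Affymetrix). The authors deposited log2 signals per transcript cluster, made with Affymetrix Expression Console, whose version and algorithm are not given in the sources used here. The array medians were nearly equal, so nothing was normalized again. Clusters were named through the platform annotation, checked by Entrez identifier against RefSeq GRCm38.p6. Of 35557 clusters, 21789 named 1 gene and were tested, 1621 named several and 12147 were unnamed.

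Knockouts and controls were compared by limma 3.58.1 (R 4.3.3; lmFit and eBayes, two-sided) with Benjamini-Hochberg adjustment over the 21789 clusters at 0.05. Members given per mouse, and Emx2, also had an exact permutation test (two-sided, unadjusted). Members were given per mouse partly for a small p or a lack of overlap, so this test is no separate support for them. The code was tested on simulated data. The number of arrays limits the precision. Alternatives covered the methods' t-test, scaling to mature OSN genes, quantile normalization, a signal filter, array weights, another variance prior, a Y-linked covariate, averaging a gene's clusters, and leaving out each array.

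All members were named. Values per mouse were given for members at an unadjusted p under 0.05, without overlap of the groups, or known from olfactory axon guidance (Sema3a, Sema3f, Nrp1, Nrp2, Plxna1, Plxna3). Of other lists, genes at that p were named (up to 6 a list) with Emx2, Omp and Gap43. Crmp1, Limk2, Flt1 and Kdr were chosen after their values were seen. The members and all lists were chosen with earlier results of these data known. Promoters came from the RefSeq table of GRCm38.p6, and the array values were not placed on coordinates.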

Additional observations from a re-analysis of the deposited data

Results flagged for a closer look

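In each group of 4 mice, the highest and the lowest value were checked for standing far from the other 3 mice (gap over range above Dixon's 95% critical value). Of 126 groups checked, 7 had such a value, and chance alone gives about 1 in 20 groups. For the semaphorin, plexin and neuropilin genes it was 3 of 62 groups, where chance gives 3.1. Sema4a was high in control 2, at 9.48 against 8.96 to 9.03 in the other controls. Sema4c was high in knockout 3, at 10.57 against 10.36 to 10.39. Plxnc1 was high in knockout 1, at 9.57 against 9.03 to 9.12. Among list means, the sustentacular genes were high in knockout 3 (12.36 against 12.26 to 12.27) and the myeloid genes in control 2 (9.95 against 9.002 to 9.110). The Y-linked genes were low in control 1 (8.09 against 10.53 to 10.63) and high in knockout 3 (10.72 against 7.05 to 7.51).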

How the results depend on the processing

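No member passed adjustment over all clusters in any of the 16 alternatives. No paired analysis was possible because the labels give no replicate numbers, and those used here were given in accession order. Scaling to the mature OSN genes left 1 ligand (Sema3d) and 1 receptor (Nrp1) at an unadjusted p under 0.05, where 8.36% of all clusters lay. The ligand median was then 0.11 and the receptor median 0.13. This scaling adds the same amount to every difference and moved the median of all clusters to 0.12. Plxna1 (0.0403) and Sema3f (0.0840) were then above 0 but still below that median. The Y-linked covariate left 1 receptor, Nrp1, where 3.18% of all clusters lay. The methods' t-test put 1 of 44 pathway partners, Limk2, at that level, where 4.96% of all clusters lay. Leaving out 1 mouse at a time gave 3 to 6 ligands (6 without knockout 3), 1 to 3 receptors (1 without knockout 2, 3 without control 3) and 0 to 3 partners (3 without knockout 3), while the share of all clusters at that level ran from 3.37% to 7.97% (7.05% without knockout 3, 6.24% without control 3 and 4.88% without knockout 2). The same fits gave a ligand median of -0.0179 to 0.0163 and a receptor median of -0.0119 to 0.0251. The cause of these shifts between mice was not tested. Without control 4, the control without Cre, the differences were 0.26 for Sema3d, -0.20 for Sema6c, -0.30 for Sema7a, -0.13 for Plxna3 and 0.20 for Nrp1. Each was still at an unadjusted p under 0.05 by limma, where 4.52% of all clusters lay. The filter on signal left 13 ligands and 10 receptors. With 4 arrays a group, the standard error of a member's difference had a median of 0.0683, and the median size of the differences was 0.0640, which limits what could be detected.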
